A study of Mus musculus with 5 samples.

Results

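The cytosolic ribosomal protein genes are those that encode the protein part of the ribosome in the cytosol. They were taken by symbol, as every listed name with the Rpl or Rps pattern plus Rpsa, the Rplp genes and named variants, without kinases of the Rps6k family and without symbols marked as pseudogenes. Of 85 matching symbols, 82 had at least 10 counts summed over the 5 libraries and are the members, out of 23337 genes listed. The large subunit held 49 of them and the small subunit 33. Rpl10l with 0 counts, Rpl26 with 1 and Rpl3l with 4 fell below the minimum, and the members just above it were Rpl39l with 41 counts, Rps4y2 with 178 and Rpl30 with 193.

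The data were RNA sequencing counts of CD8+ T cells sorted from B16-OVA tumors, a mouse melanoma line that makes ovalbumin. All groups received the same kind of cells, from CD45.1 OT-I donors on C57BL/6J of 6 to 12 weeks, which carry 1 rearranged receptor against ovalbumin as a transgene. These cells were stimulated in culture with anti-CD3 and anti-CD28, kept in interleukin-2 at 10 U/ml, and on day 5 or 6 of culture transferred into mice whose tumors measured 0.25 to 0.4 cm. There were 2 anti-PD-L1 libraries, where the hosts were treated with a PD-L1 blocking antibody, and 3 Control IgG libraries, where they were treated with rat IgG2b against KLH. Each dose was 200 µg, injected on days 3 and 6, and tumors were harvested on day 8 or once they reached 1.2 cm. Tumors of several mice of 1 group were pooled before the sort, so a library is a pool and the p-values measure the spread between pools, which may be partly technical.

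The small ribosomal subunit reads the mRNA and the large subunit joins amino acids. Each ribosome needs a full set of these proteins, and the genes that encode them are among the most strongly transcribed in dividing cells. Their mRNAs start with a tract of pyrimidines at the cap, through which the kinase complex mTORC1 and the RNA-binding protein LARP1 control how much of each mRNA is translated. T cells make many ribosomes when they are activated and start to divide, so mRNA levels and translation of this family are often read together, of which only mRNA levels were measured here.

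The pyrimidine tract is shown because it is the element for which mRNAs of this family are known. RefSeq start sites on GRCm38.p6 were matched for 61 members. A C followed by at least 5 further pyrimidines, beginning within 5 bases of the annotated start, was found in 26 of these 61, or 42.6%, against 11.9% of 27025 gene symbols with a start sequence. The windows below hold the 10 bases before the annotated start and the first 20 from it, and capitals mark the tract. They show Rpl14 and Rps6, core proteins of either subunit, Rpl13a and Rplp2, which stood apart from most members in the counts, Rpl38, a small large-subunit protein, Rps27, whose count was near 0, and Rpl22l1, a paralog of Rpl22.
Rpl14 (chr9:120571507-120571536, plus strand): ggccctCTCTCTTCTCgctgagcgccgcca
Rps6 (chr4:86857348-86857377, minus strand): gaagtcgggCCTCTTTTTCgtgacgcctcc
Rpl13a (chr7:45128726-45128755, minus strand): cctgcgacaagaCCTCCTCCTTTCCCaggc
Rplp2 (chr7:141447641-141447670, plus strand): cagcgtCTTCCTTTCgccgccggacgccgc
Rpl38 (chr11:114668570-114668599, plus strand): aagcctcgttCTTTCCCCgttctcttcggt
Rps27 (chr3:90213629-90213658, minus strand): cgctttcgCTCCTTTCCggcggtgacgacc
Rpl22l1 (chr3:28805498-28805527, plus strand): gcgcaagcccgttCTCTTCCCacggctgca
The letters CCGGAA, searched on both strands from 250 bases before to 50 after the start, were in 34 of 61 members, or 55.7%, against 16.7% of all gene symbols. AAGATGGC was in 6 of 61, or 9.84%, against 3.19%, and TATAAA in 7 of 61, or 11.5%, against 15.7%. These are matches of letters only.

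The second set of sequences concerns reads that cannot be placed. Ribosomal protein genes have many processed copies in the genome, and a read that fits several places is hard to assign. Rps27 and its retrotransposed copy Rps27rt had identical coding sequences of 252 bases, and Rps27l, a paralog on chromosome 9, differed at 60 of them, an identity of 76.2%. The stretch below covers coding bases 121 to 180, and capitals mark bases that differ from Rps27, 17 in all for Rps27l.
Rps27 (GENCODE vM21, GRCm38, chromosome 3, minus strand): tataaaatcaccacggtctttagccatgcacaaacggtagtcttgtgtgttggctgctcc
Rps27rt (chromosome 9, minus strand): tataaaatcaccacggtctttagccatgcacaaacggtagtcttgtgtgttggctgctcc
Rps27l (chromosome 9, plus strand): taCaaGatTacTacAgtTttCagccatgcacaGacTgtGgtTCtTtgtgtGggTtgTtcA
Across the members, the median share of 50-base coding windows that also occurred in a transcript of another annotated gene was 91.6%. For 30 of the 81 members with an annotated coding sequence every window was shared, and for 2, Rpl39l among them, none was. How the authors' counting handled reads that fit several places is not given, so levels of different members are uncertain. Whether shared sequence lowered or raised the counts of a member was not tested.

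Depth was 11580960 and 12830485 gene counts in the anti-PD-L1 libraries and 9985943 to 12395682 in the Control IgG libraries, where 3 counts correspond to 0.234 to 0.300 CPM (counts per 1000000 gene counts). The libraries numbered 1 of either group stood apart, with 11977 genes detected in anti-PD-L1 replicate 1 and 11696 in Control IgG replicate 1, against 13564 to 13801 in the other 3. Markers of the labelled cell type were present, with 10 of 10 T cell markers detected in every library and a sum of 8336 to 9849 CPM after anti-PD-L1 against 7752 to 8686 CPM with Control IgG. Of other cell types, 10 myeloid markers summed to 81.9 and 123 CPM after anti-PD-L1, against 193, 140 and 81.3 CPM in Control IgG replicates 1 to 3. The 9 melanoma markers summed to 50.3 and 131 CPM, against 6.94, 384 and 119 CPM. The 8 natural killer cell markers summed to 1060 and 764 CPM, against 628, 294 and 192 CPM. The most abundant of them was Gzma, a granzyme that T cells also make, at a mean of 510 CPM over the 5 libraries. Klra4 and Klra8 were at 0 in all libraries, and 5 or 6 of the 8 markers were detected in each library. The 7 B cell markers summed to 1.55 to 7.63 CPM over all libraries, with Pax5 at 0 in all of them. The 7 stromal markers summed to 28.5 to 58.2 CPM, with Col3a1, Cdh5 and Dcn at 0. Most of the stromal sum was Pecam1, at a mean of 43.1 CPM over the 5 libraries. The 4 erythroid markers summed to at most 2.65 CPM, with Alas2 alone detected. The part of these markers in the results below was not tested. In this bulk RNA, fewer cells of a type and less RNA per cell cannot be told apart.

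Ribosomal protein transcripts were among the most abundant in these T cells. Of the 82 members, 36 were among the 100 tested genes with the highest mean CPM, and 77 had a mean above 100 CPM. The median member stood at 955 CPM, against 25.1 CPM for the median of 11299 tested genes. Rplp0, which anchors the acidic stalk on the large subunit and is a common reference gene, was the highest member, at 5667 and 5573 CPM after anti-PD-L1 and 7903, 5765 and 5424 CPM with Control IgG. Next in mean CPM came Rpl4, a core protein of the large subunit, Rpsa, which sits on the back of the small subunit, Rps2, near the mRNA entry, and Rpl3.

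On a scale of CPM per kilobase of coding sequence, the quartiles over 81 members were 1437 and 3162, with a median of 2184. Reads may also come from parts of a transcript outside the coding sequence, so this scale compares genes only roughly. The coding part was 75 of 437 bases in Rpl41 and 495 of 498 in Rps10. Rplp0 reached 6379 CPM per kilobase. Rpl41 had 25360, but its coding sequence of 75 bases is the shortest of the family. At the other end, 5 members had a mean under 10 CPM. Rps27 stood at 17.7 CPM per kilobase, Rpl30 at 9.44, Rpl34 at 25.5 and Rpl39l at 4.66, while Rps4y2 had no coding sequence in the annotation. Rps27, Rpl30 and Rpl34 encode core proteins of the ribosome, and 100%, 83.1% and 72.2% of their coding windows occurred in other genes. Rpl26, another core protein, had 1 count in Control IgG replicate 1 and 0 counts in the other libraries, and 87.3% of its windows were shared. The part of shared sequence in these low values was not tested. Over the 81 members the Spearman correlation between the share of shared windows and the level per kilobase was 0.01. The Pearson correlation with the log2 level was 0.21. Both are descriptions across genes of the same libraries.

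**Figure D1:**
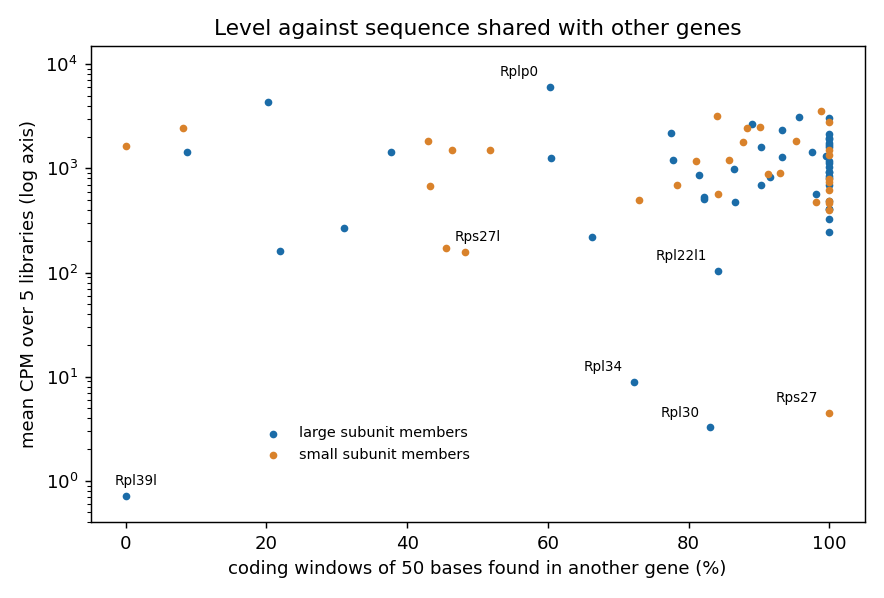
Mean CPM of each member over the 5 libraries (log axis) against the percentage of its 50-base coding windows found in a transcript of another gene. Members with every window shared ranged from Rps27, near 4 CPM, to levels above 1000 CPM, and Rpl39l was low with no window shared.

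The members together took 8.39% and 10.4% of all gene counts in anti-PD-L1 replicates 1 and 2. In Control IgG replicates 1, 2 and 3 they took 11.8%, 10.5% and 9.80%. Control IgG replicate 1 was thus the highest and anti-PD-L1 replicate 1 the lowest, while anti-PD-L1 replicate 2 lay between Control IgG replicates 2 and 3. The mean share was 9.40% ± 1.42 after anti-PD-L1 (SD, n = 2) and 10.7% ± 1.03 with Control IgG (SD, n = 3), and the single libraries overlapped between the groups. The Wilson 95% interval of anti-PD-L1 replicate 1 ran from 8.38% to 8.41%, and such intervals cover counting error only. Counts of the large subunit were 1.49 and 1.51 times those of the small subunit after anti-PD-L1, against 1.49, 1.52 and 1.54 times with Control IgG, so the balance between the subunits overlapped between the groups.

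**Figure D2:**
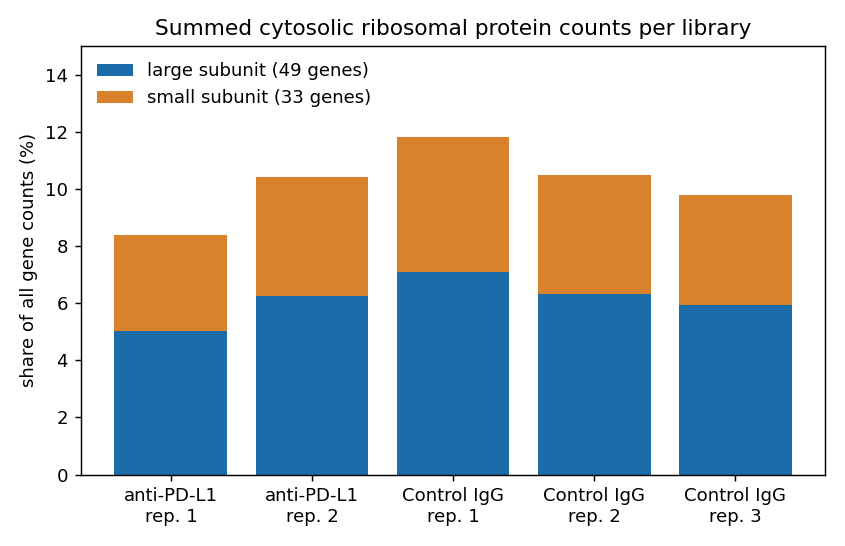
Share of all gene counts (%) taken by ribosomal protein genes in each library, stacked by subunit. Totals are 8.39% and 10.4% in the anti-PD-L1 libraries and 11.8%, 10.5% and 9.80% in the Control IgG libraries.

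The comparison asked whether ribosomal protein mRNAs differ after PD-L1 blockade. No member passed in either direction, with 0 of 82 below an adjusted p of 0.05 in edgeR's quasi-likelihood test over all 11299 tested genes, where 0% of all genes passed as well, and the smallest member p was 0.16 before adjustment. The count at an unadjusted p under 0.05 was also 0 members, against 2.13% of all tested genes, and DESeq2 and limma-voom called 0 members. Every member passed the filter on low counts. Fold changes of members, anti-PD-L1 over Control IgG on the log2 scale, ran from -0.62 to 0.16, with a median of -0.17 and a median SE of 0.27. They were below 0 for 69 of 82, or 84.1%, against 51.9% of all tested genes, whose median was -0.02. The median was -0.18 for the large and -0.15 for the small subunit.

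**Figure D3:**
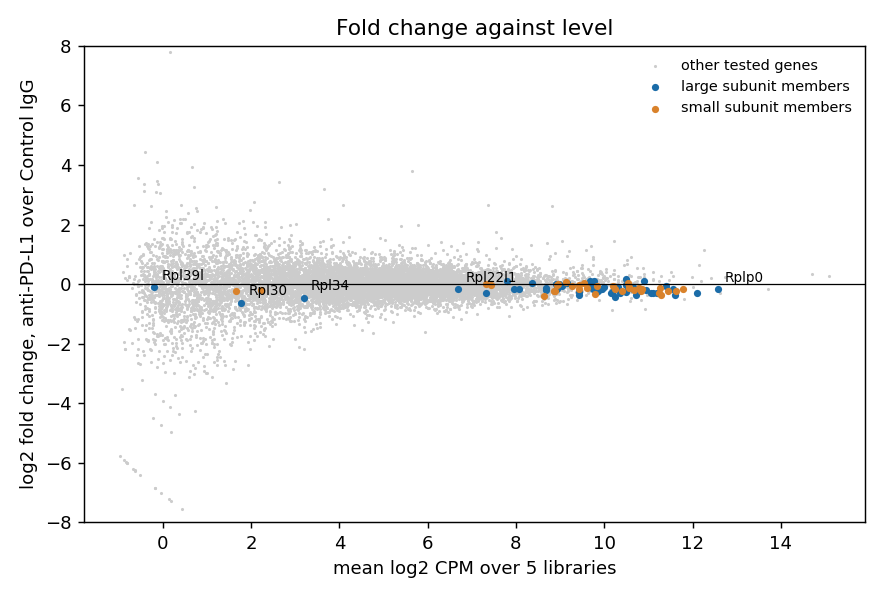
Log2 fold change, anti-PD-L1 over Control IgG, against mean log2 CPM for 11299 tested genes (grey) and the members of the large and small subunit. Most members sit at the high end of the level axis in a narrow band, and the median of all members is -0.17. The exceptions are 5 members with a mean under 10 CPM, among them Rpl30 at -0.62 and Rpl34 at -0.45.

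The libraries differed within the groups as well as between them. Relative to the mean of the 3 controls, the median member lay at -0.21 and -0.10 on the log2 scale in anti-PD-L1 replicates 1 and 2, and at 0.35, -0.14 and -0.19 in Control IgG replicates 1, 2 and 3. Control IgG replicate 1 was the highest of the 5 libraries for 77 of 82 members, or 93.9%, against 28.2% of all tested genes. The exceptions were Rpl13a and Rplp2, highest in anti-PD-L1 replicate 2, Rpl30, highest in Control IgG replicate 2, and Rps27 and Rps4y2, highest in Control IgG replicate 3. Anti-PD-L1 replicate 1 was the lowest library for 37 members, or 45.1%, against 29.4% of all tested genes. The mean of the controls was exceeded by 13 of 82 members in anti-PD-L1 replicate 1, against 79 in Control IgG replicate 1. Of 430 non-members among the 500 most abundant genes it was exceeded by 283 in anti-PD-L1 replicate 1, against 373 in Control IgG replicate 1, where 48% of all tested genes exceeded it. Without Control IgG replicate 1, the median fold change of members was 0.04, and 32 of 81 lay below 0. Without both libraries numbered 1, the median was 0.07 and 28 of 81 lay below 0, with a single anti-PD-L1 library left. In Control IgG replicate 1 the melanoma markers were at their lowest sum and the myeloid markers at their highest, and fewer genes were detected. Whether these go with the ribosomal protein level was not tested.

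**Figure D4:**
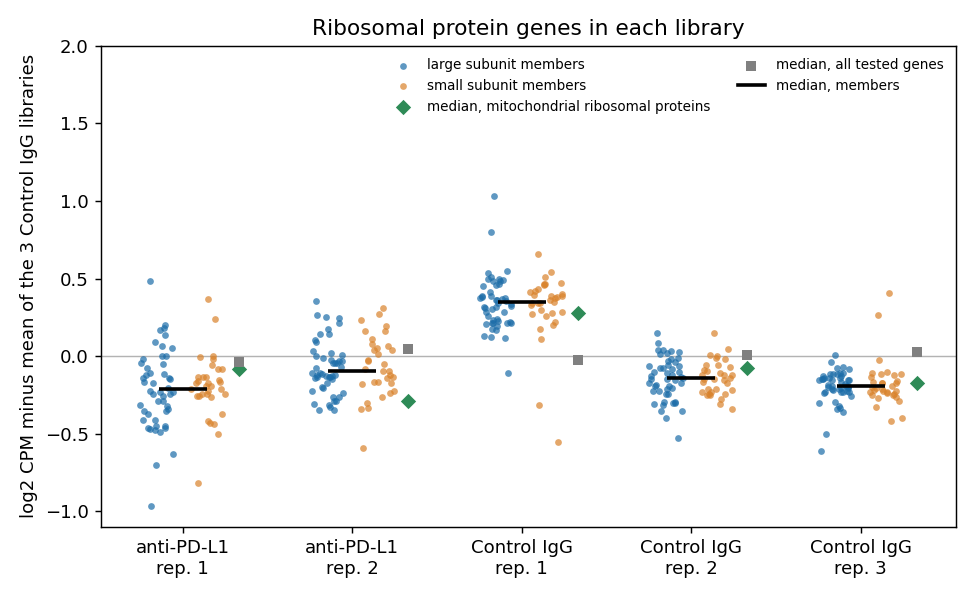
Log2 CPM of each member minus the mean of the 3 Control IgG libraries, by library, with medians of the members (bars), of mitochondrial ribosomal protein genes (diamonds) and of all tested genes (squares). Nearly all members lie above 0 in Control IgG replicate 1, where their median is 0.35, while the median of all tested genes stays near 0.

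Both anti-PD-L1 libraries lay below all 3 Control IgG libraries for 8 members, or 9.76%, against 9.58% of all tested genes, so this count is at the background. No member had both anti-PD-L1 libraries above all controls, against 7.74% of all tested genes. The 8 were Rpl3, Rpl4, Rpl7, Rpl10, Rpl14, Rpl21 and Rpl30 of the large subunit and Rps4x of the small subunit.

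Among core proteins of the large subunit, Rpl14 had the smallest p of all members. It stood at 974 and 1044 CPM after anti-PD-L1, against 1725, 1261 and 1079 CPM with Control IgG. The groups did not overlap, but anti-PD-L1 replicate 2 and Control IgG replicate 3 were close. Its log2 fold change was -0.43 ± 0.28 (SE), with an edgeR adjusted p of 0.9999, and -0.21 without Control IgG replicate 1. Rpl14 spans chromosome 9 from 120571444 to 120574654 on the plus strand, with 6 exons.

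Rpl3, which helps form the centre where peptide bonds are made, had 2431 and 2864 CPM after anti-PD-L1, against 3905, 3337 and 2941 CPM with Control IgG. The lowest control was again just above the higher anti-PD-L1 library, and the log2 fold change was -0.36 ± 0.25 (SE). Rpl10, which joins the large subunit late in its assembly, had 1724 and 1987 CPM against 2583, 2355 and 1988 CPM, so its groups were separated by 0.92 CPM. Its fold change was -0.32 ± 0.24. Rpl29, at the surface of the large subunit, had 487 and 688 CPM against 820, 776 and 677 CPM. Here anti-PD-L1 replicate 1 alone was low, and the groups overlapped. Its fold change was -0.37 ± 0.26, and -0.14 without anti-PD-L1 replicate 1.

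Rpl21 had 878 and 1122 CPM after anti-PD-L1, against 1426, 1139 and 1126 CPM with Control IgG. Rpl4 had 3396 and 4313 CPM, against 5301, 4510 and 4322 CPM. Rpl7 had 1926 and 1963 CPM, against 2780, 2288 and 2049 CPM. In all 3 genes anti-PD-L1 replicate 1 was the lowest and Control IgG replicate 1 the highest library. Rpl30 showed the fold change farthest from 0, at -0.62 ± 0.69 (SE), but it rested on 20 and 41 counts after anti-PD-L1 and 39, 45 and 48 counts with Control IgG.

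The stalk recruits the elongation factors. Of its 4 genes, 3 had a fold change below 0, and their median was -0.14. The small acidic protein Rplp1 stood at 1011 and 1424 CPM after anti-PD-L1, against 1546, 1166 and 1195 CPM. Its partner Rplp2 stood at 192 and 271 CPM, against 264, 179 and 202 CPM, with a log2 fold change of 0.11 ± 0.28 (SE). Both were clearly higher in anti-PD-L1 replicate 2 than in replicate 1, and in both the groups overlapped. Rplp0 had a fold change of -0.18 ± 0.26, and 0.01 without Control IgG replicate 1, and Rpl12, at the base of the stalk, -0.26 ± 0.26.

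Rpl5 and Rpl11 form a particle with the 5S RNA, and free copies of it inhibit MDM2 and so stabilise p53. Rpl5 had 1402 and 1492 CPM after anti-PD-L1, against 2371, 1744 and 1459 CPM, a log2 fold change of -0.36 ± 0.28 (SE). Rpl11 had 985 and 1112 CPM, against 1533, 1078 and 1124 CPM, a fold change of -0.25 ± 0.26. In both, Control IgG replicate 1 was far above the other libraries and the groups overlapped. Without that library the fold changes were -0.15 for Rpl5 and -0.07 for Rpl11.

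The genes around the exit of the peptide tunnel had fold changes below 0 in 6 of 6 tested cases, against 84.1% of all members. Their median was -0.18 and their range -0.23 to -0.00. Among the large-subunit genes with the most positive values was Rpl13a, which in human cells also takes part in translational silencing after interferon-gamma. It stood at 1451 and 1617 CPM after anti-PD-L1, against 1580, 1167 and 1371 CPM, with a log2 fold change of 0.16 ± 0.24 (SE). Rpl27 had 880 and 832 CPM, against 984, 669 and 710 CPM, a fold change of 0.12 ± 0.26. Rpl41, the shortest ribosomal protein, had 1959 and 2016 CPM, against 2515, 1399 and 1620 CPM, a fold change of 0.11 ± 0.30. Rpl38, needed in mouse embryos for translation of homeobox mRNAs, had 297 and 364 CPM, against 443, 253 and 276 CPM, a fold change of 0.03 ± 0.30. For Rpl27, Rpl41 and Rpl38 the anti-PD-L1 libraries lay above Control IgG replicates 2 and 3 and below replicate 1, and without replicate 1 their fold changes were 0.31, 0.40 and 0.32. Without both libraries numbered 1, the members with an unadjusted p under 0.05 were Rpl36, Rpl37a, Rpl41 and Rplp2, with log2 fold changes of 0.40 to 0.50 and an edgeR adjusted p of 0.9998. These 4 of 81 members, or 4.94%, stand against 4.38% of 11687 genes tested in that fit, a share near the background, and were named after their values were seen.

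In the small subunit, members were listed by their place in the head or in the body and platform. Of 14 head genes, 13 had a fold change below 0, with a median of -0.10, and of 17 body and platform genes 14, with a median of -0.17. Over all members 84.1% lay below 0. In both lists Control IgG replicate 1 was high, with a median of 0.36 relative to the control mean. In anti-PD-L1 replicates 1 and 2 the medians were -0.20 and 0.02 for the head and -0.17 and -0.17 for the body and platform. Rps4x, an X-linked body protein, had the smallest p in this subunit. It stood at 1926 and 2330 CPM after anti-PD-L1, against 3076, 2725 and 2415 CPM, so the groups did not overlap. Its log2 fold change was -0.36 ± 0.24 (SE), with an edgeR adjusted p of 0.9999. Rps4x spans chromosome X from 102184941 to 102189394 on the minus strand.

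Rps6, the substrate of S6 kinase that is used as a readout of mTORC1, stood at 2598 and 2475 CPM after anti-PD-L1, against 3757, 2649 and 2517 CPM. Apart from Control IgG replicate 1, its libraries lay within 174 CPM of each other. Rps3, at the mRNA entry, had 2178 and 2464 CPM, against 3044, 2418 and 2174 CPM. Rpsa had 2746 and 3867 CPM, against 3959, 3676 and 3383 CPM, and here anti-PD-L1 replicate 1 was the library that stood apart. Their fold changes were -0.23 ± 0.27, -0.13 ± 0.25 and -0.15 ± 0.25 (SE), in this order, and -0.03, 0.02 and -0.09 without Control IgG replicate 1. Rps2 had 2803 and 2983 CPM, against 3849, 3327 and 2933 CPM, a fold change of -0.22 ± 0.24.

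Rps27a, which is made as a fusion with ubiquitin, stood at 1166 and 1268 CPM, against 1924, 1207 and 1181 CPM, a fold change of -0.24 ± 0.29 (SE). Rps19, the gene most often mutated in Diamond-Blackfan anemia in humans, stood at 1094 and 1191 CPM, against 1647, 977 and 963 CPM, a fold change of -0.07 ± 0.30. In Rps27a all libraries but Control IgG replicate 1 were close together. In Rps19 both anti-PD-L1 libraries lay above Control IgG replicates 2 and 3 and below replicate 1. Without Control IgG replicate 1 the fold changes were 0.03 for Rps27a and 0.24 for Rps19. Of 10 tested genes mutated in that anemia, 9 had a fold change below 0, against 84.1% of all members, with a median of -0.17. Rps10 varied least of the members over the 5 libraries, with an SD of 0.17 on the log2 scale. The median SD was 0.26 for members and 0.41 for all tested genes, most of which are less abundant. For the 430 non-members among the 500 most abundant genes it was 0.30.

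Paralogs of ribosomal proteins can replace the common form. Rpl22l1, the paralog of a protein that mouse T cell development needs, stood at 114 and 79.5 CPM after anti-PD-L1, against 173, 86.5 and 64.8 CPM. Rpl22 stood at 231 and 263 CPM, against 380, 249 and 212 CPM. Counts of Rpl22l1 were 49.3% and 30.2% of those of Rpl22 after anti-PD-L1, against 45.4%, 34.8% and 30.6%. The libraries numbered 1 of both groups were the 2 highest in this ratio, and the groups overlapped. The log2 fold changes were -0.16 ± 0.42 (SE) for Rpl22l1 and -0.18 ± 0.30 for Rpl22, and 0.35 and 0.10 without Control IgG replicate 1.

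Rps27l, a p53 target in human cells, showed the same order of libraries. It stood at 193 and 124 CPM after anti-PD-L1, against 237, 126 and 112 CPM, so that both libraries numbered 1 were above the other 3, and its fold change was 0.01 ± 0.37 (SE), and 0.42 without Control IgG replicate 1. Rps27 had 27 and 76 counts after anti-PD-L1, against 34, 54 and 79 counts, and here the libraries numbered 1 were the 2 lowest. Rpl39l, a form found mainly in mouse testis, had 10 and 6 counts, against 16, 4 and 5 counts, while Rpl39 had 491 and 470 CPM, against 641, 382 and 421 CPM. Rpl36al, a copy of Rpl36a on another chromosome, had 83.0% to 112% of its partner's counts. It stood at 413 and 337 CPM, against 577, 353 and 359 CPM, and Rpl36a at 368 and 406 CPM, against 586, 336 and 363 CPM. All coding windows of both occurred in other genes, so their separate values are uncertain. Rpl7l1, a relative of Rpl7 with a role in ribosome assembly, had 146 and 135 CPM, against 218, 165 and 134 CPM, at 6.55% to 7.85% of the Rpl7 counts in every library. Rps4y2, listed under an older symbol of Rps4l, had 32 and 33 counts, against 28, 35 and 50 counts.

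Members differed among themselves by length. Their coding sequences ran from 75 to 1257 bases, with a median of 453, against 1359 for all tested genes with one. Over 81 members, the log2 fold change and log2 coding length had a Pearson correlation of -0.52, against -0.02 over 9901 tested genes, as descriptions across genes of the same 5 libraries. The 41 members of at most 453 bases had a median fold change of -0.08, and the 40 longer ones -0.23. The shorter members took 26.8% and 26.5% of member counts after anti-PD-L1, against 26.0%, 22.3% and 24.5% with Control IgG. Among single libraries, length and the level relative to the control mean correlated at 0.61 in Control IgG replicate 2, against 0.21 over all tested genes. In the other libraries the members' correlation was -0.40 and -0.43 in anti-PD-L1 replicates 1 and 2, against -0.35 and -0.10 in Control IgG replicates 1 and 3. Over all tested genes the same values were -0.12 and 0.19 after anti-PD-L1, against -0.30 and 0.29 with Control IgG. Levels of the controls relative to their own mean cancel for each gene, so their correlations must be of mixed sign. The signs can therefore not be compared between the groups. GC content of the coding sequence had a Pearson correlation of 0.31 with the log2 fold change of members. With the level relative to controls it was -0.10 and 0.51 in anti-PD-L1 replicates 1 and 2. In Control IgG replicates 1, 2 and 3 it was -0.29, 0.01 and 0.45. The part of length and base composition in the fold changes was not tested.

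**Figure D5:**
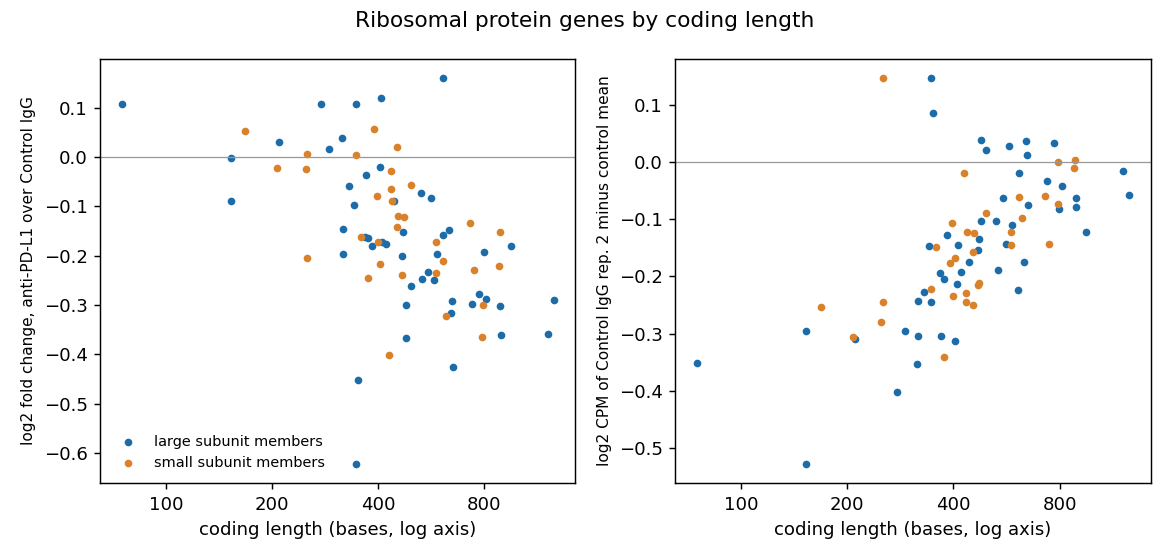
Members by coding length (bases, log axis) against their log2 fold change, anti-PD-L1 over Control IgG (left), and their log2 CPM in Control IgG replicate 2 minus the control mean (right). Longer members have lower fold changes (Pearson -0.52) and higher values in that control library (0.61).

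Members were also split by whether a tract was found within 5 bases of their annotated start. A tract farther from that start was not counted, so members without a match may still have one. The split therefore cannot compare mRNAs with and without the tract. The 26 members with a match had a median fold change of -0.16, with 21 below 0, and the 35 without a match -0.15, with 30 below 0. In Control IgG replicate 1 the medians relative to the control mean were 0.35 with a match and 0.37 without, and the difference was not tested.

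Other genes tied to ribosome production were described by the same counts. Of 21 further transcripts known to start with such a tract, 20 had a fold change below 0, with a median of -0.37. Both anti-PD-L1 libraries lay below all controls for 7 of the 21, against 9.58% of all tested genes. None passed over all genes in edgeR, and 1 of 21, Npm1, had an unadjusted p under 0.05, against 2.13% of all tested genes. Npm1, a nucleolar chaperone, stood at 1059 and 1571 CPM after anti-PD-L1, against 3052, 2154 and 1858 CPM, a log2 fold change of -0.84 ± 0.31 (SE). Eef1g, a subunit of the elongation factor that brings in tRNA, had 1180 and 1662 CPM, against 2527, 1868 and 1807 CPM, a fold change of -0.54 ± 0.28. In this list Control IgG replicate 1 was high as well, with a median of 0.27 relative to the controls, and the median was -0.48 and -0.15 in anti-PD-L1 replicates 1 and 2.

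Chaperones and import factors that carry new ribosomal proteins numbered 12, of which 11 lay below 0, and their median was -0.37. Both anti-PD-L1 libraries lay below all controls for 6 of the 12, against 9.58% of all tested genes. An unadjusted edgeR p under 0.05 was seen for 3 of the 12, against 2.13% of all tested genes, with none called. Ltv1, which helps build the head of the small subunit, had 60.2 and 88.3 CPM, against 143, 110 and 120 CPM, a fold change of -0.74 ± 0.27 (SE). Grwd1, whose yeast relative is a chaperone of Rpl3, had 38.2 and 74.9 CPM, against 128, 84.7 and 99.2 CPM, a fold change of -0.88 ± 0.35. The median of this list relative to the control mean was -0.52 and -0.29 in the anti-PD-L1 libraries, against -0.00, -0.09 and -0.00 in the controls.

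Regulators of the translation of these mRNAs numbered 16, of which 13 lay below 0, against 51.9% of all tested genes. Their median fold change was -0.09. Per library, their median relative to the control mean was -0.36 and 0.17 after anti-PD-L1, against -0.13, 0.09 and -0.01 with Control IgG. Genes above that mean numbered 2 and 13 of the 16 after anti-PD-L1, so the libraries of that group lay on opposite sides of it. Myc, a transcription factor that drives ribosome production, had 229 and 535 CPM, against 746, 469 and 525 CPM, a fold change of -0.60 ± 0.39 (SE). Its low value was that of anti-PD-L1 replicate 1, since replicate 2 lay within the controls. Eif4e, which binds the cap, had 207 and 194 CPM, against 337, 216 and 199 CPM, a fold change of -0.32 ± 0.29.

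The last family was that of the mitochondrial ribosomal proteins, encoded in the nucleus and used by the ribosome of mitochondria. Of 76 tested, 60 had a fold change below 0, with a median of -0.19. Both anti-PD-L1 libraries lay below all controls for 19 of the 76, against 9.58% of all tested genes. None was called, and 1 of 76, Mrps18b, had an unadjusted edgeR p under 0.05, against 2.13% of all tested genes. It stood at 54.3 and 70.7 CPM, against 94.6, 110 and 93.7 CPM, and Mrps5 at 34.7 and 52.6 CPM, against 79.5, 62.0 and 64.0 CPM. The family's median relative to the control mean was -0.09 and -0.29 in the anti-PD-L1 libraries, and 0.28 in Control IgG replicate 1, while the cytosolic members had -0.21, -0.10 and 0.35. The difference between the families was not tested. The 430 most abundant other genes, ranked among the top 500, lay below 0 in 204 cases, with a median of 0.02. Relative to the control mean their medians were 0.17 and -0.12 in the anti-PD-L1 libraries, against 0.25, -0.15 and -0.11 in the controls.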

How the data were processed

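The authors deposited whole-number read counts per gene symbol, not normalized. Per the submitters' processing notes, the tools were TopHat and HTSeq and the build was mm10. Not given in the sources used here are versions, annotation, strand setting, read length and how reads with several places were handled. The counter line for non-unique alignments was 0 in all libraries. RNA of 5000 to 30000 cells was amplified by a modified Smart-seq2 protocol, per the labels, which marks neither strand nor molecule. Counter lines were left out; reads without a feature were 7.46% to 15.2% and ambiguous reads 1.38% to 1.51%.

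The test was that of edgeR 4.0.16, run in R 4.3.3 (quasi-likelihood F-test, two-sided, TMM, filterByExpr with a minimum count of 10 and total of 15, Benjamini-Hochberg threshold 0.05). CPM values are TMM-scaled, except marker sums and shares of all counts, which use library totals. The SE is the fold change divided by the square root of F. Log2 CPM values had a prior count of 2. DESeq2 1.42.0 and limma 3.58.1 were alternatives, and the edgeR step was tested on simulated data.

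Gene models come from GENCODE vM21 on GRCm38 (mm10), start sequences from RefSeq on GRCm38.p6, and coding lengths from 81 members. The coding sequence of each gene was cut into windows of 50 bases and looked up on both strands in all annotated transcripts.

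Members and lists were chosen with earlier results of these data known. Named members are structural landmarks, paralogs, the 5 of highest CPM, the 4 of smallest p per direction, the 3 of largest and smallest SD and up to 6 per direction whose groups do not overlap, and of other lists the 2 of smallest p. Some items this rule names are not reported here. A likeness of other genes to the mean member over 5 libraries is not reported, since 5 samples are too few for a correlation. Rpl23a shares 55.3% of its coding bases with exons of the listed gene Tlcd1, so its counts are uncertain.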

Additional observations from a re-analysis of the deposited data

How the results depend on the processing

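No member was called under any alternative run. Over all genes, the count called higher was 0 in edgeR and 5 with no filter on low counts, 4 in DESeq2 and 1 without both libraries numbered 1, with 0 called lower throughout; edgeR had 241 genes at an unadjusted p under 0.05. The count of members with a fold change below 0 was 69, 36 when libraries were scaled to their summed member counts and 28 without both libraries numbered 1. With 1 library left out it ran from 32, without Control IgG replicate 1, to 80. The member median then ran from -0.28 to 0.04, that of the large subunit from -0.29 to 0.04 and that of the small subunit from -0.25 to 0.07. Fits with a single anti-PD-L1 library assume that it varies like the controls. Scaling to the summed members moved the median of all genes to 0.12 and that of members to 0.02. Under the other scalings the member median ran from -0.17 to -0.14. The 8 members with both anti-PD-L1 libraries below all controls became 13 on library totals only. The share of all tested genes on that scale is not given here, so the 13 cannot be set against a background. Over 64 members without a paralog or listed copy the median was -0.17. Of 553 fold changes of 37 named members over 15 alternatives, 63 had the other sign and none was called.

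With the replicate number as a block, the member median was -0.25, 76 of 82 lay below 0, and no gene was called; Rps23 had an unadjusted p of 0.0322. Deviations of same-numbered libraries from their group means correlated over genes at 0.33 and 0.37. With 2 anti-PD-L1 libraries, the deviation of replicate 2 is the negative of that of replicate 1. The values are thus not from separate pairs and cannot show a pairing. No value was computed for the share of members in a total without mitochondrially encoded genes, which were not used here. Depth limits Rpl30, Rps27, Rpl39l and Rps4y2, each with at most 79 counts in a library.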

Other observations

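Some proteins of the ribosome have symbols that fall outside the rule. Fau, a ubiquitin-like fusion of a small-subunit protein, stood at 1334 and 1360 CPM after anti-PD-L1, against 1602, 976 and 1093 CPM with Control IgG, a log2 fold change of 0.14 ± 0.28 (SE). Gnb2l1, an older symbol of Rack1, a scaffold on the head of the small subunit, had 1188 and 1656 CPM, against 1785, 1742 and 1417 CPM, a fold change of -0.21 ± 0.26. In both genes the groups overlapped, and neither was called in edgeR, with an adjusted p of 0.9999.

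Of 6 listed pseudogene symbols, Rps15a-ps4 alone had more than 25 counts in a library. It had 292 and 268 counts after anti-PD-L1, against 363, 205 and 238 counts, in the same order of libraries as Rps15a, which had 6927 and 6900 counts, against 8055, 5159 and 6070. Whether these reads come from the copy or from Rps15a was not tested.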
